A study of Mus musculus with 32 samples.

Results

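The lymphocyte marker genes described here are Ptprc, Cd2, Cd3d, Cd3e, Cd3g, Cd8a, Cd8b1, Cd79a, Cd79b and Nkg7. They were taken by symbol from both raw count tables, 1 for female and 1 for male livers, and all 10 were found among the 41585 gene rows. The study sequenced liver RNA from wildtype (WT) and Cyp2b-null mice to ask whether loss of Cyp2b enzymes changes the progression of diet-induced fatty liver disease. Deletion of Cyp2b9, Cyp2b10 and Cyp2b13 defines the Cyp2b-null genotype, and these genes encode liver cytochrome P450 enzymes that oxidize drugs and fatty acids. They were made by CRISPR/Cas9 on the C57BL/6 strain, and their WT controls were bought from a supplier and acclimated. Mice aged 10 weeks were given normal chow (ND) or the CDAHFD, a high fat diet deficient in choline in which L-amino acids replace protein, with 0.1% methionine and 62% fat. Feeding lasted 8 weeks in every group. The 8 groups were ND-fed WT, CDAHFD-fed WT, ND-fed Cyp2b-null and CDAHFD-fed Cyp2b-null mice of each sex, with 4 libraries in each group and 32 in all.

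Lymphocytes are the T, B and natural killer (NK) cells of the immune system, and the liver holds resident populations of each beside its macrophages. Ptprc encodes CD45, a tyrosine phosphatase of the cell surface that acts on antigen receptor signalling, and it is carried by nearly every white blood cell, macrophages and neutrophils included. Cd2 encodes an adhesion receptor of T and NK cells. Cd3d, Cd3e and Cd3g encode signalling chains of the T cell receptor complex, and Cd8a and Cd8b1 both chains of the co-receptor of cytotoxic T cells. Cd79a and Cd79b encode the signalling pair of the B cell receptor. Nkg7 encodes a membrane protein of the cytotoxic granules of NK cells and cytotoxic T cells. In whole liver, fewer cells of a type and less RNA per cell cannot be told apart.

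On GRCm38.p6, Ptprc lies on the minus strand of chromosome 1 from 138062859 to 138175756, and Cd2 on chromosome 3 from 101275908 to 101287939. Cd8b1 (71322788 to 71337492) and Cd8a (71373427 to 71379171) are neighbours on chromosome 6. Cd79a (24897497 to 24901858) and Nkg7 (43437138 to 43438246) are on chromosome 7, and Cd79b is on chromosome 11 from 106311341 to 106314562. The Cd3 genes form 1 cluster on chromosome 9, where Cd3g (44969572 to 44980431) and Cd3d (44981769 to 44987052) are read away from each other with 1355 bases between their start sites, and Cd3e (44998735 to 45009663) follows. Cd3e overlaps an antisense gene, Gm48719, and a gene on its own strand, Gm48720, and Ptprc overlaps A130071D04Rik on its own strand. The strand setting of the counting is not given in the sources used here, so reads of Cd3e may include some of its antisense partner.

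RefSeq promoter sequences around the start site (GRCm38.p6) were matched for 7 of the 10 genes. They were searched on both strands for core letters of factors that act in white blood cells. The ETS family core CAGGAA occurs in 30.6% of all 32851 promoters of the same length and the RUNX family core TGTGGT in 16.8% of them. The EBF1 motif CCCNNGGG occurs in 13.7%. For the GATA family the letters searched were AGATAA, which 11.2% of the promoters hold. The promoters of 4 genes are printed because they belong to the gene with the clearest response to diet (Ptprc, the first of 2 start sites), to the neighbours Cd3d and Cd3g, and to Nkg7. Capitals mark matches, which did not overlap each other, and are no evidence of binding.
Ptprc: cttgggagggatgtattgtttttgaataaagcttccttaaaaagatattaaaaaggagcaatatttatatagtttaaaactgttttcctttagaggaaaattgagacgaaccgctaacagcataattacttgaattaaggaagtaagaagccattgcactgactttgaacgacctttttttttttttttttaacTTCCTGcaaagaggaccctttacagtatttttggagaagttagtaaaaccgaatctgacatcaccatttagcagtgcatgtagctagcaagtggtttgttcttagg
Cd3d: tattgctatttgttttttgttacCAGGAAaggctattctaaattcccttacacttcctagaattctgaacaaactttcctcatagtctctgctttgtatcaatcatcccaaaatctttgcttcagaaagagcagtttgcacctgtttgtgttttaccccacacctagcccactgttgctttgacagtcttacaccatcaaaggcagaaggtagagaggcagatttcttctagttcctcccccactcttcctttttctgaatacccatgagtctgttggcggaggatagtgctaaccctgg
Cd3g: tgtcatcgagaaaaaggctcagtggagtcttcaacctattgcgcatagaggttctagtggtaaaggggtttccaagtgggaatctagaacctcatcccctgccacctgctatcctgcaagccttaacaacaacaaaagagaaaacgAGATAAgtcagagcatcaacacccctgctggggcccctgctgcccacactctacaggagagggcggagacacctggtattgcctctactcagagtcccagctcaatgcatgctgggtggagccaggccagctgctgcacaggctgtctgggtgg
Nkg7: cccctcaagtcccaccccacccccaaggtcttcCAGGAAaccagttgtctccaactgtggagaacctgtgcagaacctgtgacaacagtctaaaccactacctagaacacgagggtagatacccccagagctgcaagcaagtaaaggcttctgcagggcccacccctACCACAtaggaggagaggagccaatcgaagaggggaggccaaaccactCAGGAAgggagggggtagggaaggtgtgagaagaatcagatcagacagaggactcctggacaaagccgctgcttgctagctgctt
The windows shown are chr1:138175256-138175555 (minus strand) for Ptprc, chr9:44981536-44981835 (plus) for Cd3d, chr9:44980382-44980681 (minus) for Cd3g and chr7:43436888-43437187 (plus) for Nkg7. Ptprc and Cd3d each held 1 ETS core, Cd3g 1 GATA match, and Nkg7 2 ETS cores and 1 RUNX match. The Cd3e and Cd79a windows each held 1 ETS core, and the Cd8a window held none of the 4 motifs.

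Gene counts summed to between 2906411 and 10166959 per library, so that 1 read was worth 0.0833 to 0.384 CPM (the read count scaled by the TMM-adjusted library total) and 3 reads 0.25 to 1.15 CPM. Cyp2b9 counts were 683 to 3530 in WT female and 2 to 8 in Cyp2b-null female libraries. In males a different gene separated the genotypes on each diet. Cyp2b10 was at 33 to 97 counts in ND-fed WT and 1 to 9 in ND-fed Cyp2b-null males, and Cyp2b9 at 118 to 364 in CDAHFD-fed WT and 2 to 7 in CDAHFD-fed Cyp2b-null males. CDAHFD-fed Cyp2b-null female replicate 3 stood apart: its median Spearman correlation with its own group was 0.950, against 0.970 to 0.981 in the other libraries, and its summed erythroid cell genes were the highest of the 32 libraries at 849 CPM. Hepatocyte markers summed to 58458 to 198700 CPM over all libraries. The count tables of females and males were separate files, so sex and table cannot be told apart where the sexes are compared. No label says more on how replicates were drawn than 4 per group, and p-values measure the spread between these libraries.

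Of the 10 genes, only Ptprc was well covered, with 17 to 577 counts per library and a median of 94. Cd79b had 1 to 24 counts and at most 3 in 4 of 32 libraries. Cd2 and Cd8b1 were the sparsest, with at most 3 counts in 25 of 32 libraries each and 0 in 14 and 10 libraries. Cd3d was at 0 in 8 libraries, Nkg7 in 5, Cd3e in 4, and Cd3g, Cd8a and Cd79a in 2 each. Compared per kilobase of the longest coding transcript, the mean level in CDAHFD-fed WT males was 6.88 ± 2.01 CPM per kb for Ptprc (SD, n = 4) and lay between 0.265 ± 0.0940 (Cd8b1) and 1.72 ± 1.30 CPM per kb (Nkg7) for the other 9 genes. Below Nkg7 the order was Cd79b, Cd3g, Cd79a, Cd3d, Cd3e, Cd2, Cd8a and Cd8b1, and each differed from the next by less than the SD of the higher of the pair. The filter on low counts kept Ptprc, Cd79a, Cd79b and Nkg7 in females and Ptprc, Cd3g and Cd79b in males. Nkg7 in females and Cd3g and Cd79b in males passed it through CDAHFD-fed libraries only. Cd79a in females passed it through Cyp2b-null libraries only. The other members were tested in the same model fitted to all genes with a count, and each such value is named as coming from the fit without the filter.

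The CDAHFD was compared with ND within each genotype and sex (edgeR quasi-likelihood test, called at an adjusted p under 0.05). Of the members, 1 of the 4 tested in WT females was called by diet, against 24.1% of all genes tested, and 2 of 4 in Cyp2b-null females, against 30.8%. In WT males 1 of 3 was called (all genes 33%), and in Cyp2b-null males 2 of 3 (all genes 37.4%). Without the filter the calls among all 10 were 1, 3, 3 and 4 in WT females, Cyp2b-null females, WT males and Cyp2b-null males, against 13.4%, 16.7%, 18.2% and 20.4% of genes with a count. The diet groups did not overlap, with CDAHFD higher, for 2, 4, 2 and 4 members in the same order, where 8.5%, 9.39%, 9.54% and 11.9% of genes with a count did so. Each of these shares rests on 1 to 4 genes. In the filtered fit, Nkg7 in females and Cd3g and Cd79b in males entered through CDAHFD-fed libraries only. Their calls are thus drawn from genes chosen partly for being high on that diet. The fitted diet effect was above 0 for all 10 members in all 4 comparisons, although the sign of Cd3g and Cd79a in females changed when single libraries were left out. The median over the members was 1.28 and 1.30 in WT and Cyp2b-null females and 1.19 and 1.82 in males, all in the fit without the filter, where the median over all genes was 0.

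Ptprc rose on the CDAHFD in both sexes and both genotypes, and the diet groups did not overlap in any of the 4 comparisons. In WT females Ptprc was at 12.9, 14.2, 14.1 and 11.2 CPM on ND (replicates 1 to 4) and at 28.9, 37.3, 30.9 and 35.1 CPM on CDAHFD. In Cyp2b-null females it was at 13.6, 10.1, 10.8 and 14.1 CPM on ND and at 36.5, 31.3, 19.5 and 28.5 CPM on CDAHFD. The lowest CDAHFD value of females, 19.5 CPM, belonged to replicate 3 of the Cyp2b-null mice, the library that stood apart. The log2 fold change by diet was 1.38 ± 0.19 (SE) in WT females (adjusted p = 1.43e-05, edgeR quasi-likelihood test with Benjamini-Hochberg adjustment over all genes tested). In Cyp2b-null females it was 1.27 ± 0.19 (adjusted p = 3.43e-05), and 1.42 without replicate 3 (adjusted p = 2.0e-06).

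On ND every male library was below every female library in Ptprc, and on CDAHFD the ranges of the sexes overlapped. In WT males it was at 6.99, 8.27, 8.10 and 8.31 CPM on ND and at 19.7, 38.7, 39.5 and 41.7 CPM on CDAHFD. In Cyp2b-null males it was at 7.67, 7.52, 7.16 and 3.77 CPM on ND and at 33.6, 25.7, 48.1 and 44.1 CPM on CDAHFD. The lowest CDAHFD-fed male, at 19.7 CPM, was still above the highest ND-fed male. The log2 fold change was 2.14 ± 0.24 in WT males (adjusted p = 8.64e-07) and 2.51 ± 0.25 in Cyp2b-null males (adjusted p = 1.07e-07). Ptprc passed the threshold under every alternative and with each replicate left out in all 4 comparisons.

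**Figure D1:**
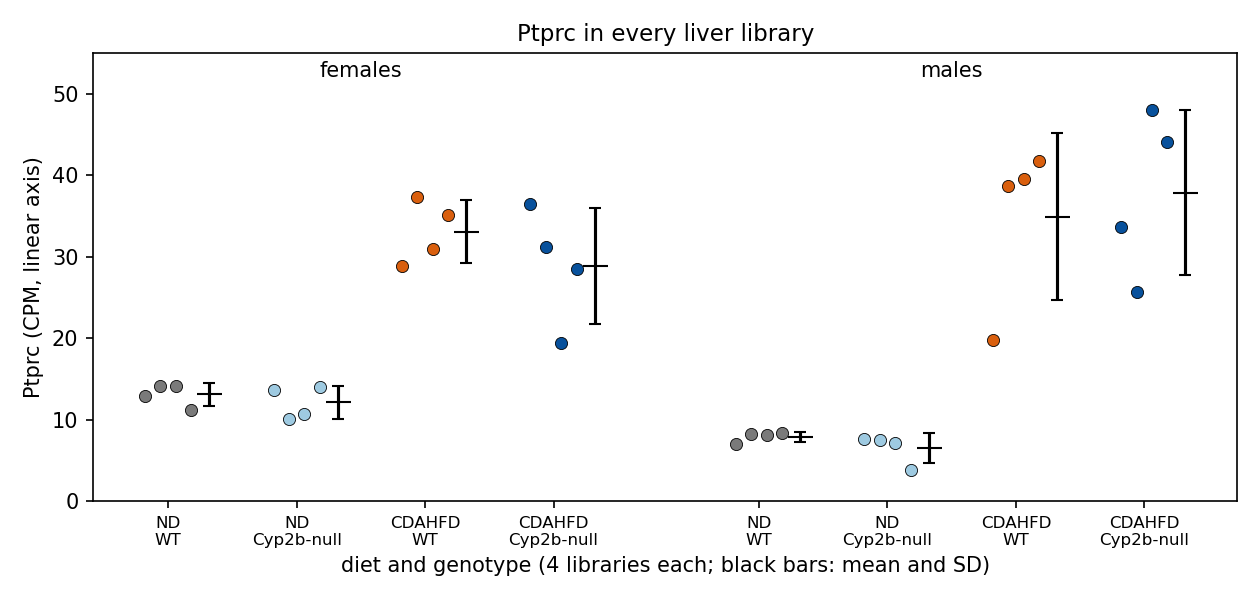
Ptprc in CPM (y axis, linear from 0) in each of the 32 libraries, by diet, genotype and sex; black bars give the mean and SD of 4 libraries. ND-fed libraries lie between 3.77 and 14.2 CPM and CDAHFD-fed libraries between 19.5 and 48.1 CPM.

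Macrophage and Kupffer cell genes, whose cells also carry CD45, mostly rose by diet as Ptprc did, and a few fell. Of 14 tested of 15 listed, 10 rose and 2 fell by diet in WT females, 10 and 1 in Cyp2b-null females, and 12 and 1 in each male genotype. Over all genes tested, 24.1% and 30.8% were called in WT and Cyp2b-null females and 33% and 37.4% in males, in either direction. Their summed level ranged from 434 to 691 CPM in ND-fed and from 1112 to 1424 CPM in CDAHFD-fed WT females. In WT males it went from 178 to 356 CPM to 965 to 2000 CPM, in Cyp2b-null females from 419 to 647 CPM to 1159 to 1750 CPM, and in Cyp2b-null males from 200 to 271 CPM to 1343 to 2405 CPM. All 3 neutrophil markers tested rose in each of the 4 comparisons, and 6 or 7 of 8 hepatocyte markers fell. The part of these cells in the Ptprc result was not tested.

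The Cd3 genes were too sparse for most tests and gave 1 call. Cd3d counts in WT males were 1, 0, 4 and 1 on ND and 1, 11, 10 and 7 on CDAHFD. All CDAHFD libraries but the first lay above the ND range, so the groups overlapped. The log2 fold change was 2.17 ± 0.81 (adjusted p = 0.0420, fit without the filter). The call was lost under the replicate block, under DESeq2 (adjusted p = 0.0648), with only the 2 groups in the fit, and with any of 6 of the 8 replicates left out, all but ND replicate 3 and CDAHFD replicate 1 (adjusted p up to 0.202). In Cyp2b-null males Cd3d counts were 5, 2, 0 and 0 on ND and 8, 3, 8 and 9 on CDAHFD (log2 fold change 1.65 ± 0.80, adjusted p = 0.149).

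In females Cd3d went from 4, 0, 0 and 0 counts to 3, 1, 5 and 3 in WT mice (log2 fold change 1.22 ± 0.93, adjusted p = 0.481). In Cyp2b-null females it went from 2, 3, 0 and 0 to 3, 6, 14 and 9 counts, without overlap in CPM (2.04 ± 0.80, adjusted p = 0.0604). Without replicate 3, which had the 14 counts, that change was 1.63 (adjusted p = 0.262), while it passed without ND replicate 2 or CDAHFD replicate 1 (adjusted p = 0.0469 and 0.0467). Cd3e went from 1, 0, 1 and 3 to 4, 2, 6 and 10 counts in WT females (1.73 ± 0.79, adjusted p = 0.148). In Cyp2b-null females Cd3e counts were 1, 1, 0 and 8 on ND and 5, 8, 10 and 15 on CDAHFD (1.40 ± 0.66, adjusted p = 0.146), and the 1 overlap came from ND replicate 4. Without that replicate the Cd3e change was 2.91 (adjusted p = 0.0192). In males Cd3e gave 1.14 ± 0.87 in WT (adjusted p = 0.430) and 0.47 ± 0.91 in Cyp2b-null mice (adjusted p = 0.798).

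Cd3g, the most counted of the Cd3 genes, showed no detectable diet effect in females. Its counts in Cyp2b-null females were 1, 6, 5 and 9 on ND and 3, 6, 11 and 13 on CDAHFD, and the groups overlapped. In WT females they were 3, 3, 1 and 6 on ND and 4, 0, 4 and 12 on CDAHFD. The log2 fold changes were 0.25 ± 0.66 in WT females (adjusted p = 0.923) and 0.095 ± 0.58 in Cyp2b-null females (adjusted p = 0.993), the latter changing sign to -0.062 without replicate 3. In males Cd3g passed the filter: its counts were 2, 5, 1 and 4 on ND and 0, 6, 11 and 12 on CDAHFD in WT mice, and 9, 1, 8 and 2 and then 15, 10, 26 and 15 in Cyp2b-null mice. Its log2 fold changes were 1.15 ± 0.72 (adjusted p = 0.238) and 1.26 ± 0.61 (adjusted p = 0.114).

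In the fit without the filter Cd8a rose in Cyp2b-null mice of both sexes, and Cd8b1 rose in Cyp2b-null males. In Cyp2b-null males Cd8b1 was at 1, 0, 0 and 0 counts on ND and at 10, 6, 12 and 2 counts on CDAHFD, without overlap in CPM. With a single count on ND, the pooled rate was 20.8 times higher on CDAHFD with a 95% counting interval of 3.45 to 848, and the fitted adjusted p was 0.00549. Intervals of pooled ratios, here and below, cover counting error only and leave out the spread between libraries. The Cd8b1 call held with each replicate left out (adjusted p from 0.00469 to 0.0299). In WT males Cd8b1 went from 1, 0, 0 and 0 to 3, 2, 2 and 2 counts, also without overlap (pooled ratio 8.66, interval 1.20 to 380, adjusted p = 0.147). In WT females the counts were 0, 0, 1 and 0 on ND and 2, 3, 3 and 1 on CDAHFD with overlap (pooled ratio 7.31, interval 1.01 to 320, adjusted p = 0.210). In Cyp2b-null females they were 0, 2, 1 and 2 on ND and 5, 10, 5 and 10 on CDAHFD, and every CDAHFD library was above every ND library in CPM (log2 fold change 1.96 ± 0.83, adjusted p = 0.0887).

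Cd8a, the partner chain, was at 2, 1, 1 and 1 counts in ND-fed and 15, 6, 8 and 8 counts in CDAHFD-fed Cyp2b-null females, with no overlap in CPM. Its log2 fold change there was 2.33 ± 0.76 (adjusted p = 0.0160). The call was lost without ND replicate 2 (adjusted p = 0.0661), ND replicate 4 (0.0808) or CDAHFD replicate 1, the library with 15 counts (0.161). In Cyp2b-null males Cd8a counts were 1, 4, 0 and 1 on ND and 5, 3, 27 and 14 on CDAHFD, and the groups overlapped in CPM. The change was 2.38 ± 0.76 (adjusted p = 0.0108), rose to 3.58 without ND replicate 2, and lost its call without ND replicate 1 or 3 or without CDAHFD replicate 3 or 4 (adjusted p from 0.0568 to 0.0831). In WT mice Cd8a gave 1.82 ± 0.85 in females, with no overlap (adjusted p = 0.161), and 1.11 ± 0.72 in males (adjusted p = 0.342).

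Cd2 was at 0 in all 4 libraries of ND-fed Cyp2b-null males and at 4, 1, 2 and 0 counts on CDAHFD. With no count on ND the pooled ratio has only a lower limit, which was 0.998 (95% counting interval), and the fitted adjusted p was 0.104 (fit without the filter). In WT males it was at 0, 3, 4 and 0 counts on ND and 4, 4, 3 and 1 on CDAHFD (log2 fold change 0.82 ± 1.03, adjusted p = 0.656). In WT females 1 count on ND stood against 11 on CDAHFD (pooled ratio 8.93, interval 1.30 to 384, adjusted p = 0.183), and in Cyp2b-null females 4 against 10 (0.71 ± 1.03, adjusted p = 0.713). All Cd2 groups with any counts on both diets overlapped.

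Of the B cell receptor genes, Cd79b rose by diet in 1 comparison and Cd79a in none. In Cyp2b-null males Cd79b was at 0.333, 0.228, 1.05 and 0.886 CPM on ND (3, 1, 5 and 4 counts) and at 3.06, 1.15, 2.0 and 2.87 CPM on CDAHFD (19, 11, 24 and 14 counts). The groups did not overlap, although the closest values were 1.05 and 1.15 CPM. In males Cd79b passed the filter through CDAHFD-fed libraries only. The log2 fold change was 1.86 ± 0.56 (adjusted p = 0.0114), and of the 8 replicates only leaving out ND replicate 1 lost the call (1.56, adjusted p = 0.0543). In WT males Cd79b went from 1.65, 0.496, 0.274 and 0.875 CPM to 1.14, 3.12, 1.87 and 1.60 CPM, with overlap through ND replicate 1 (1.26 ± 0.54, adjusted p = 0.0801). Without that replicate the change was 1.86 (adjusted p = 0.0236).

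In females neither B cell receptor gene passed the test. Cd79b was at 1.79, 2.30, 2.02 and 0.689 CPM in ND-fed and at 3.94, 2.12, 1.20 and 2.50 CPM in CDAHFD-fed WT females (log2 fold change 0.64 ± 0.45, adjusted p = 0.340). In Cyp2b-null females it gave 0.37 ± 0.42 (adjusted p = 0.530). Cd79a varied more within groups than between diets: in ND-fed Cyp2b-null females it was at 0.302, 3.97, 1.15 and 2.34 CPM and on CDAHFD at 1.01, 2.86, 3.03 and 1.81 CPM. Its log2 fold change was 0.080 ± 0.50 there (adjusted p = 0.923), while the pooled rate ratio was 0.995 with an interval of 0.645 to 1.55, so the estimates fell on either side of no change. In WT females Cd79a gave 0.35 ± 0.73 (adjusted p = 0.777), and in males, without the filter, 0.69 ± 0.70 in WT (adjusted p = 0.538) and 1.56 ± 0.78 in Cyp2b-null mice (adjusted p = 0.165).

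Nkg7 rose in Cyp2b-null females and, in the fit without the filter, in WT males. No ND-fed female library had more than 6 counts of it, so Nkg7 passed the female filter through CDAHFD-fed libraries only. In Cyp2b-null females it was at 0.302, 0.793, 1.92 and 1.0 CPM on ND (1, 4, 5 and 6 counts) and at 3.27, 1.43, 5.53 and 2.29 CPM on CDAHFD (13, 9, 31 and 19 counts). Replicate 3 was the highest of each diet, and the groups overlapped between 1.43 and 1.92 CPM. The log2 fold change was 1.68 ± 0.55 (adjusted p = 0.0256). Without CDAHFD replicate 3, the library that stood apart, it was 1.25 (adjusted p = 0.108), and the call was also lost without ND replicate 1, 2 or 4 (adjusted p from 0.0602 to 0.0753). In WT females Nkg7 went from 0.994, 1.15, 0.337 and 0.345 CPM to 0.438, 1.65, 1.20 and 2.97 CPM (1.27 ± 0.65, adjusted p = 0.174).

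In WT males Nkg7 counts were 0, 0, 3 and 0 on ND and 0, 13, 12 and 11 on CDAHFD, so 1 CDAHFD library was as empty as the ND group. With 3 counts on ND in all, the pooled rate was 11.5 times higher on CDAHFD (95% counting interval 3.65 to 58.6), and the fitted log2 fold change was 3.39 ± 0.86 (adjusted p = 0.000835). This call held with each replicate left out (adjusted p up to 0.0106), with a fitted change of 6.27 when ND replicate 3, the source of all 3 counts, was absent. In Cyp2b-null males Nkg7 counts were 4, 2, 2 and 0 on ND and 12, 9, 15 and 4 on CDAHFD. These groups did not overlap in CPM (1.78 ± 0.74, adjusted p = 0.0737).

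**Figure D2:**
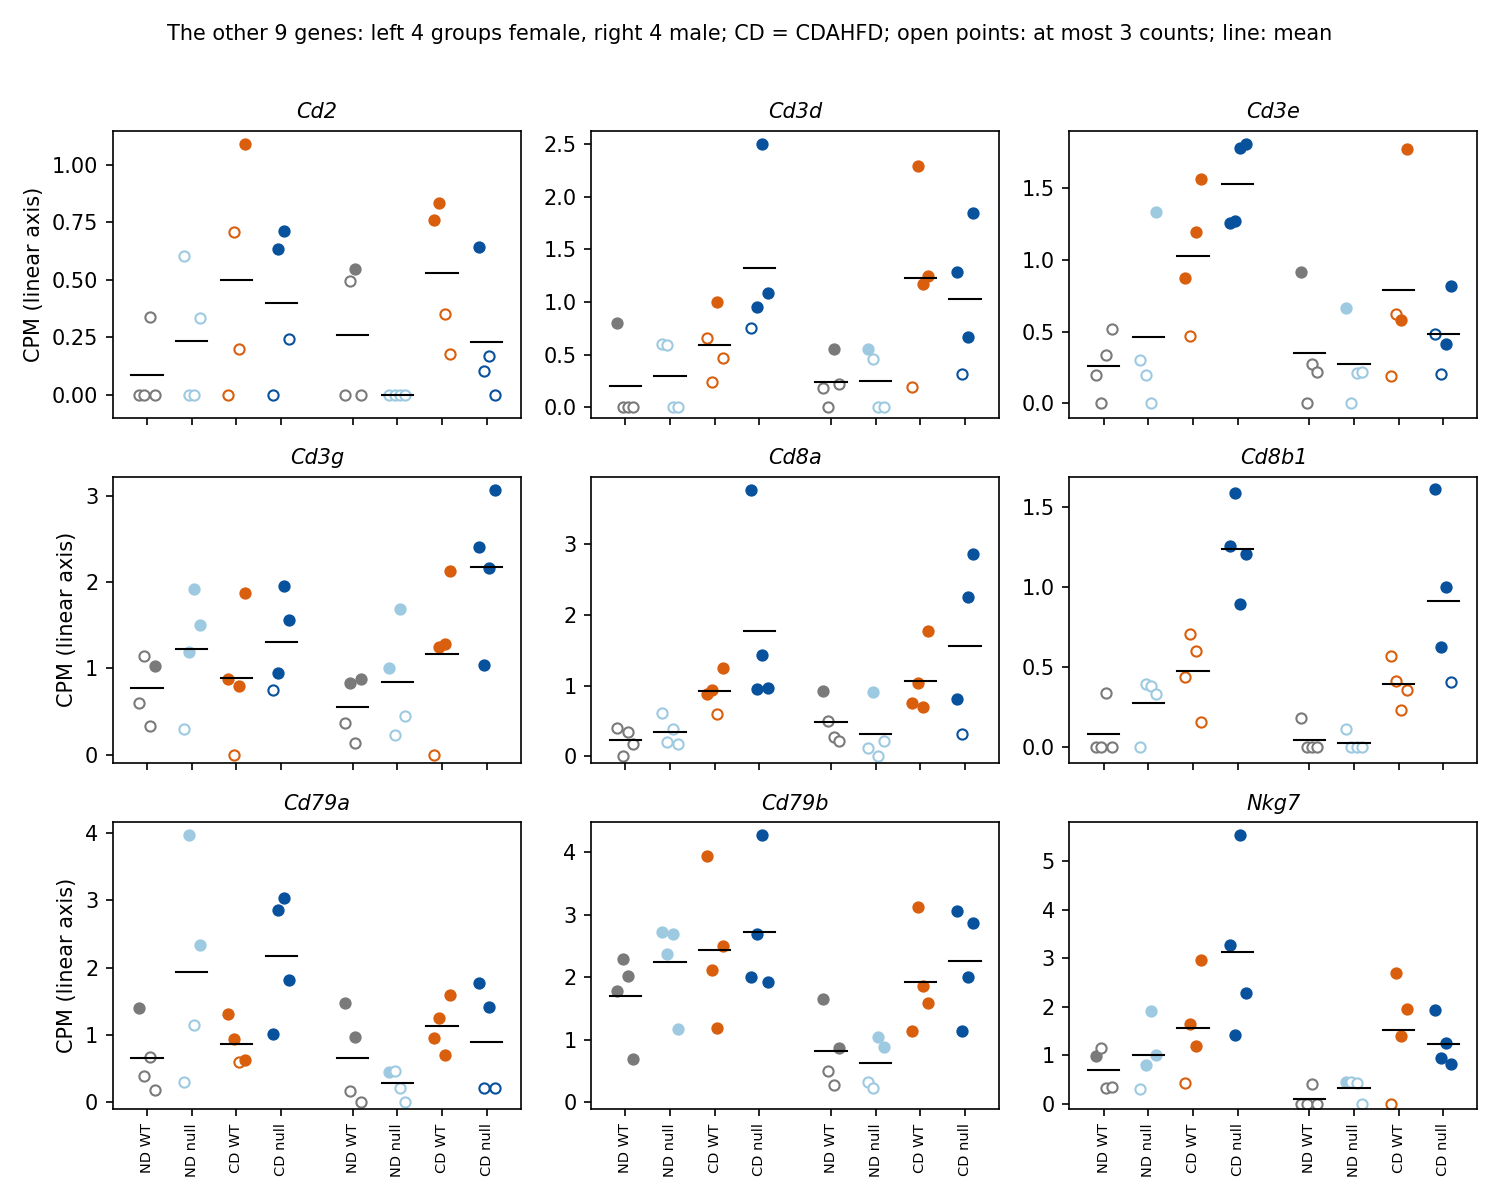
CPM (y axes, linear) of the other 9 genes in each library, with the left 4 groups of each panel female and the right 4 male; horizontal lines are group means and open points are libraries with at most 3 counts. Most ND-fed points are open or at 0, and Cd8b1 reaches 1.59 CPM in CDAHFD-fed Cyp2b-null females and 1.61 CPM in CDAHFD-fed Cyp2b-null males.

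**Figure D3:**
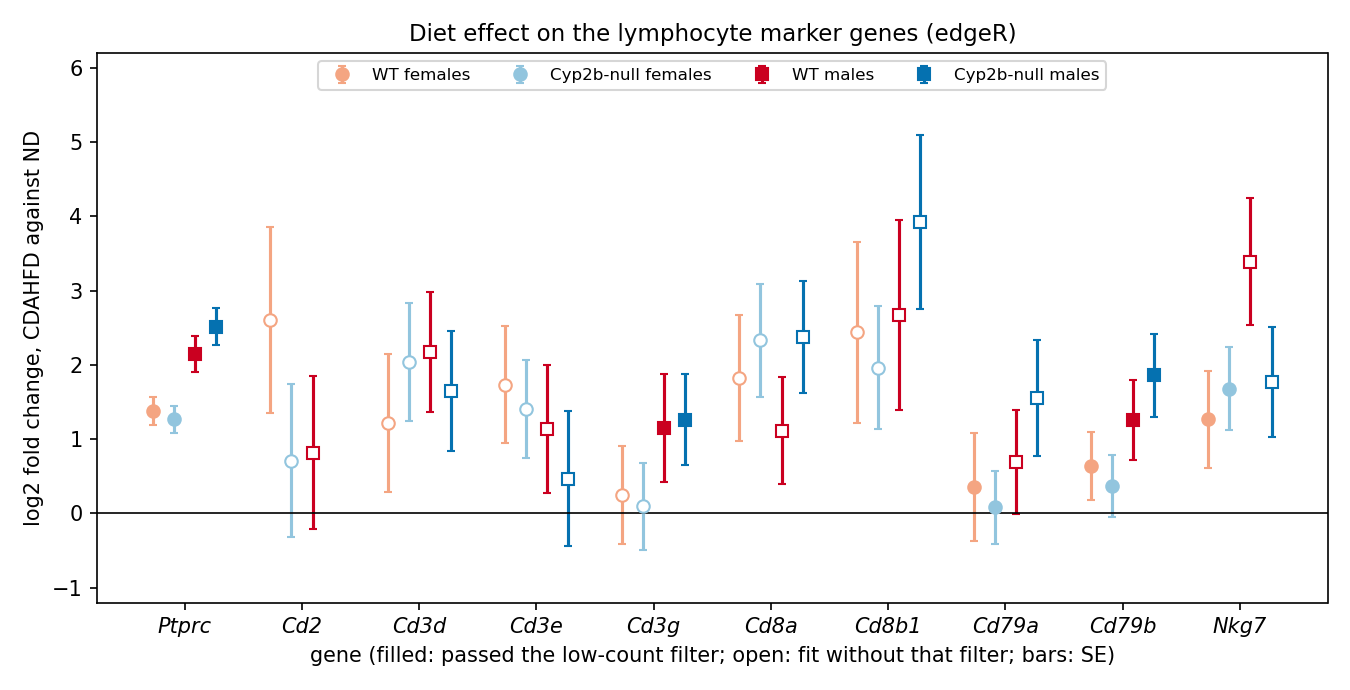
Log2 fold change of CDAHFD against ND (y axis) for each gene, with SE bars, in WT and Cyp2b-null mice of each sex; filled symbols passed the low-count filter and open ones come from the fit without it. Ptprc has the smallest errors, 0.19 to 0.25, and Cd2 in Cyp2b-null males is left out because it was at 0 in that ND group.

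The T cell genes were also set against Ptprc in the same library. In males, the 6 of them together (Cd2, Cd3d, Cd3e, Cd3g, Cd8a and Cd8b1) had 36.8, 22.0, 22.0 and 18.4 counts per 100 Ptprc counts in ND-fed WT males and 12.5, 16.7, 10.9 and 17.9 in CDAHFD-fed WT males. These groups did not overlap, with CDAHFD lower. In Cyp2b-null males the values were 31.9, 21.2, 26.5 and 23.5 on ND and 21.5, 10.1, 13.9 and 20.5 on CDAHFD, and they overlapped only between 21.2 and 21.5. The sums behind these values were 45 and 123 counts in WT and 42 and 194 counts in Cyp2b-null males, so on CDAHFD the counts were higher and the ratio lower. Not every gene did so: Nkg7 pooled over WT males was at 1.62 per 100 Ptprc counts on ND and 4.17 on CDAHFD, and Cd8a with Cd8b1 pooled over Cyp2b-null males at 4.58 and 6.33, with overlap in both. Ratios of this kind, formed after the values had been seen, are a description with no test.

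In females the genotypes did not overlap in the same ratio on either diet. It was 15.4, 8.11, 11.9 and 15.4 per 100 Ptprc counts in ND-fed WT and 17.8, 25.5, 25 and 26.2 in ND-fed Cyp2b-null females. On CDAHFD it was 12.9, 8.23, 14.2 and 18.2 in WT and 21.4, 20.3, 47.7 and 24.2 in Cyp2b-null females, where 47.7 was replicate 3, the library that stood apart. Every Cyp2b-null female was above every WT female of its diet, on sums of 28 and 50 counts on ND and 93 and 180 counts on CDAHFD. In males the genotypes overlapped on both diets. WT and Cyp2b-null males ranged from 18.4 to 36.8 and 21.2 to 31.9 on ND, and from 10.9 to 17.9 and 10.1 to 21.5 on CDAHFD. How often other gene sets separate in such ratios, by diet or genotype, was not counted. For the B cell pair the ratio ran from 7.69 to 24.6 in ND-fed and 5.81 to 18.2 in CDAHFD-fed WT females, and from 22.2 to 62.7 and 8.28 to 37.6 in Cyp2b-null females, with overlap in each pairing.

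**Figure D4:**
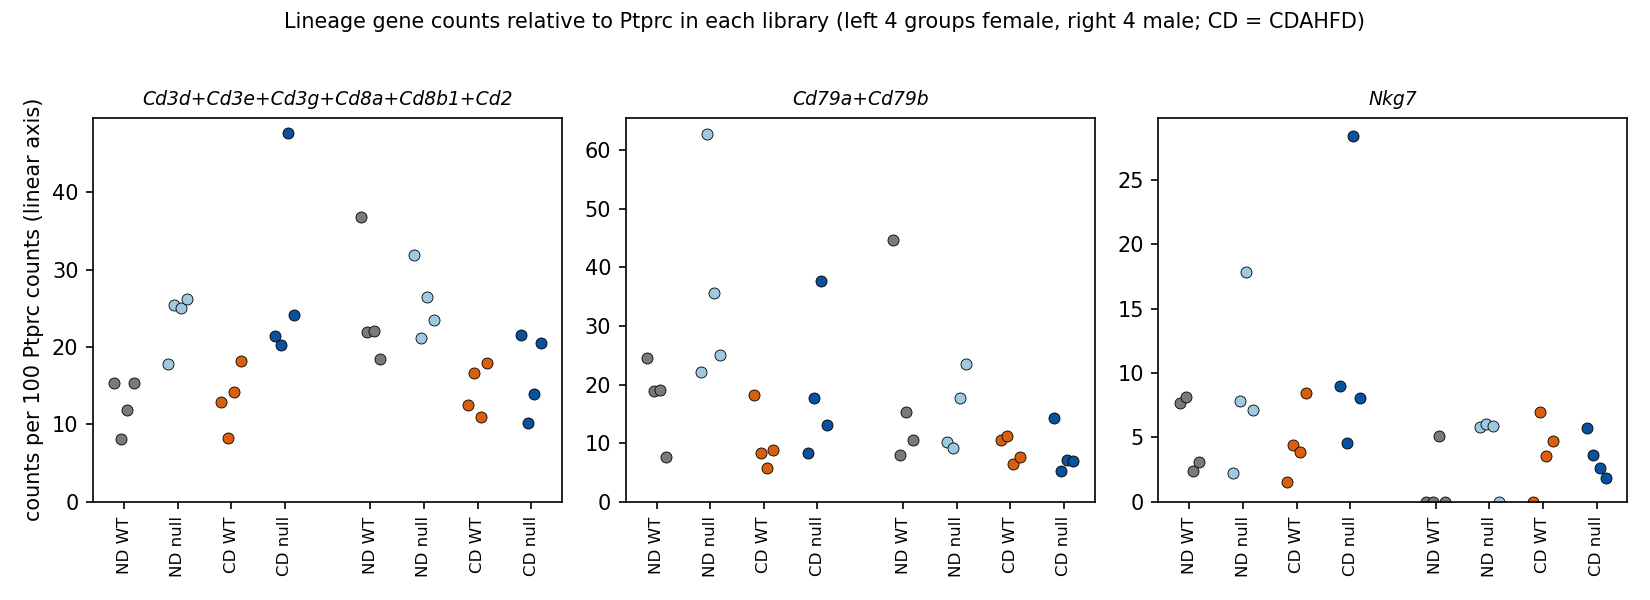
Counts of the 6 T cell genes, the 2 B cell receptor genes and Nkg7 per 100 Ptprc counts (y axes, linear from 0) in each library, with the left 4 groups of each panel female and the right 4 male. For the T cell genes the WT females lie between 8.11 and 18.2 and the Cyp2b-null females between 17.8 and 47.7, and for Nkg7 the highest library, at 28.4, is CDAHFD-fed Cyp2b-null female replicate 3.

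No member was called between genotypes on either diet in either sex by edgeR. Genotype calls were rare over all genes, at 0.0756% on ND and 0.0227% on CDAHFD in females and 0.0371% and 0.0297% in males. At an unadjusted p under 0.05 in the fit without the filter, 1 and 2 of 10 members passed in females on ND and CDAHFD (all genes 5.39% and 5.64%) and 1 and 0 in males (7.07% and 3.85%), and DESeq2 called none. Ptprc was 13.1 ± 1.39 CPM in ND-fed WT and 12.1 ± 1.99 CPM in ND-fed Cyp2b-null females, and 33.1 ± 3.85 and 28.9 ± 7.13 CPM on CDAHFD (SD, n = 4). The Cyp2b-null against WT log2 difference of Ptprc was -0.087 ± 0.20 on ND and -0.20 ± 0.17 on CDAHFD in females, and -0.25 ± 0.28 and 0.11 ± 0.22 in males (adjusted p from 0.836 to 1).

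Cd79a had the largest genotype difference of the members that passed the filter. No WT female library had more than 7 counts of it, so Cd79a passed the female filter through Cyp2b-null libraries only. Its place in this ranking rests partly on that selection. It was at 1.39, 0.383, 0.673 and 0.172 CPM in ND-fed WT females, against 0.302, 3.97, 1.15 and 2.34 CPM in ND-fed Cyp2b-null females, and the groups overlapped. The difference was 1.63 ± 0.64 on ND (unadjusted p = 0.0186, adjusted p = 0.793). On CDAHFD it was 1.36 ± 0.56 (unadjusted p = 0.0243, adjusted p = 0.826), where WT females were at 1.31, 0.944, 0.598 and 0.625 CPM. In males without the filter it was -1.12 ± 0.83 on ND and -0.25 ± 0.65 on CDAHFD. Nkg7 differed by 0.90 ± 0.48 on CDAHFD in females (adjusted p = 0.826), and by 0.47 without replicate 3. Cd79b differed by at most 0.43 in females and 0.41 in males, in either direction.

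Cd8b1 was the 1 member whose genotype groups did not overlap, among CDAHFD-fed females, where 1.09% of genes with a count were without overlap and higher in Cyp2b-null mice. Its 2, 3, 3 and 1 counts in WT stood against 5, 10, 5 and 10 in Cyp2b-null females (0.438, 0.708, 0.598 and 0.156 against 1.26, 1.59, 0.892 and 1.21 CPM). The log2 difference was 1.40 ± 0.74 (adjusted p = 0.802, and between 0.756 and 1 under every other setting run). In CDAHFD-fed males the counts were 3, 2, 2 and 2 against 10, 6, 12 and 2, with overlap (1.22 ± 0.85, adjusted p = 0.928). The male Cd3g difference on CDAHFD was 0.82 ± 0.58 (adjusted p = 1). Cd2 in ND-fed males, with 7 counts in WT and 0 in Cyp2b-null mice, had an upper limit of 0.715 for the pooled ratio of the latter to WT (95% counting interval, adjusted p = 0.485).

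Whether the diet effect itself differed between genotypes was tested as an interaction. No member was called in either sex, where 0% of genes in females and 0.00743% in males were called, and DESeq2 called none. In the fit without the filter no member reached an unadjusted p under 0.05 (all genes 6.3% in females and 6.16% in males). For Ptprc the interaction was -0.11 ± 0.27 in females and 0.37 ± 0.35 in males on the log2 scale. For Cd79b it was -0.27 ± 0.62 in females and 0.60 ± 0.80 in males, and for Nkg7 in females 0.41 ± 0.93. The SEs of the low-count genes were 0.62 or more, and fitted interactions as large as 2.82 (Cd2 in males, unadjusted p = 0.105) did not pass.

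The sexes differed in the size of the Ptprc response. In a fit of all 8 groups, the diet effect of Cyp2b-null males exceeded that of Cyp2b-null females by 1.27 ± 0.32 on the log2 scale (adjusted p = 0.0213), and 1 of 6 members tested was called, where 3.4% of genes were. With replicate 3 of the females and replicate 4 of the males left out of the CDAHFD-fed Cyp2b-null groups, both of which the study's heat maps lack, it was 1.05 (adjusted p = 0.0853). The call was also lost without ND-fed Cyp2b-null female replicate 4 (adjusted p = 0.0550), ND-fed Cyp2b-null male replicate 4 (0.0560) or CDAHFD-fed Cyp2b-null male replicate 3 (0.0650). In WT mice the same difference was 0.79 ± 0.32 (adjusted p = 0.315), and none of 6 members was called where 0.97% of genes were. DESeq2 called none there, and 2 of 10 had an unadjusted p under 0.05 without the filter (all genes 8.12%). The sex difference of the genotype effect on CDAHFD gave no member call by edgeR or DESeq2 (all genes 0.00713%) and no unadjusted p under 0.05 without the filter (all genes 4.09%), with 0.31 ± 0.28 for Ptprc.

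Ptprc was lower in male than in female ND-fed WT mice, at 7.92 ± 0.627 against 13.1 ± 1.39 CPM (SD, n = 4), without overlap, as were 9.44% of genes tested in that direction. The log2 difference was -0.71 ± 0.24 (adjusted p = 0.0401), 1 call of 6 members tested where 17.8% of genes were called. It passed in only 1 of 8 fits that left out a replicate, that without ND-fed WT female replicate 4 (adjusted p = 0.0417 against 0.0602 to 0.0947 in the others). In the same comparison 10 of 14 macrophage and Kupffer cell markers were called lower in males. Of the other T cell genes 2 of 9 were called lower, and of the other NK and cytotoxic cell genes 2 of 5. Of 10 other B and plasma cell genes 0 were called. The fitted difference was above 0 for 2, 0, 0 and 1 genes of these lists in that order, so most genes of each were lower in males. The part of any of these cells in the Ptprc difference was not tested. On CDAHFD the WT sexes were at 34.9 ± 10.2 (male) and 33.1 ± 3.85 CPM (female), a difference of 0.082 ± 0.20 (adjusted p = 0.837). No member was called there by edgeR or DESeq2, where 11% of genes were, and none had an unadjusted p under 0.05 without the filter (all genes 15.8%).

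Other genes of the same cell types gave a mixed picture. Of 25 other T cell genes, 7 were tested in females and 6 in males. By diet 2 were called higher in WT females, 1 in Cyp2b-null females, 3 in WT males and 2 in Cyp2b-null males, and none lower. Over all genes tested, 24.1%, 30.8%, 33% and 37.4% were called in that order, in either direction, which applies to each list below. The fitted change was above 0 for 4, 5, 4 and 4 of the T cell genes, with median log2 changes of 0.14, 0.38, 0.72 and 0.53. The genes named from each list had the lowest adjusted p by diet in WT females or WT males. Il7r, a chain of the interleukin 7 receptor listed here with the T cell genes, rose in all 4, by 2.64 ± 0.42, 3.42 ± 0.49, 5.62 ± 0.58 and 4.33 ± 0.50 (largest adjusted p = 7.55e-05). In WT males its mean went from 0.205 CPM on ND to 9.36 CPM on CDAHFD, and that of the summed Cd3 genes from 1.14 to 3.18 CPM. Which cells carried Il7r was not tested. Tcf7, a transcription factor of T cells, rose by 0.82 ± 0.25 in WT females (adjusted p = 0.0203) and by 1.06 ± 0.27 in each male genotype (adjusted p = 0.00433 in WT and 0.00325 in Cyp2b-null males). In Cyp2b-null females its change was -0.19 ± 0.23 (adjusted p = 0.573).

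Of 20 other B and plasma cell genes, 7 were tested in females and 9 in males. In the same order 2, 3, 3 and 2 were called higher and none lower. The fitted change was above 0 for 4, 5, 6 and 7 of them, with medians of 0.12, 0.61, 0.37 and 0.63. Blnk, an adaptor below the B cell receptor that macrophages also express, rose by 3.59 ± 0.44 in WT females and 4.39 ± 0.37 in WT males (adjusted p = 4.70e-06 and 1.53e-08). Cd22, an inhibitory co-receptor of B cells, rose by 1.45 ± 0.34 in WT females (adjusted p = 0.00322) and 2.41 ± 0.36 in WT males (adjusted p = 2.18e-05). Both rose in Cyp2b-null mice too, with Cd22 at 0.91 ± 0.32 in females (adjusted p = 0.0340) and 2.47 ± 0.36 in males (adjusted p = 1.38e-05). The B cell receptor pair and Cd22 thus gave different call patterns in WT mice, a difference that was not tested.

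Of 19 other NK and cytotoxic cell genes, only 4 in females and 2 in males were tested. Ccl5, a chemokine made by activated T and NK cells, rose in all 4 comparisons, by 1.52 ± 0.40 and 2.71 ± 0.42 in WT and Cyp2b-null females and 2.19 ± 0.58 and 2.62 ± 0.55 in males (largest adjusted p = 0.00853). Gzma, a granule protease, rose in Cyp2b-null females (1.77 ± 0.62, adjusted p = 0.0335) and gave 0.85 ± 0.60 in WT females (adjusted p = 0.340). Il2rb, a chain of the interleukin 2 and 15 receptors, rose in both male genotypes (1.25 ± 0.48 and 1.94 ± 0.49, adjusted p = 0.0484 and 0.00343) and gave 0.13 ± 0.35 and 0.75 ± 0.35 in WT and Cyp2b-null females.

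Of the remaining marker lists, erythroid genes gave 1 rise of 5 tested in each female genotype and 1 fall of 5 in each male genotype by diet. Plasmacytoid dendritic cell markers gave 1 rise of 3 in each female and 2 of 4 in each male genotype. Stellate cell markers gave 3, 4, 3 and 5 rises of 7, cholangiocyte markers 2, 3, 2 and 2 rises of 5, and endothelial markers 2 falls of 6 in each female genotype, 1 rise and 1 fall in WT males and 4 rises in Cyp2b-null males. No gene of any of these lists was called between genotypes.

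Within groups, the genes whose log2 CPM deviated most like Ptprc over the 32 libraries were Itgal (Pearson r = 0.847), Cybb (0.847), Setd7 (0.817), Rab8b (0.803) and Msn (0.795). For the 3 Cd3 genes together the closest were Lama1 (0.655), Pycr1 (0.644), Grn (0.635), Spib (0.631) and Vipr1 (0.624). For the B cell pair they were Gnl3 (0.673), Bnip3 (0.673), Gm5045 (0.671), Gps1 (0.626) and Ramp2 (0.622). For Nkg7 they were Clec1b (0.739), Gm10709 (0.678), Glod4 (0.671), Ccl4 (0.661) and Rusc2 (0.660). Each list holds the top 5 of up to 13783 genes over the same libraries, and the values share depth and, for the sparse genes, the steps of single reads.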

How the data were processed

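Total RNA from livers gave 32 paired-end libraries. Per the study's methods, Trimmomatic cut off bases of low quality, GSNAP placed the reads on GRCm38.p6, and the authors deposited raw read counts per gene from Subread featureCounts (versions, strand and multi-mapping settings not given in the sources used here). Counts of females and of males came in 1 table each.

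Groups were taken from the labels. The members and gene lists were chosen with earlier results of these data known. Counts were scaled by TMM and filtered with filterByExpr (smallest count 10), and tested with edgeR 4.0.16 (R 4.3.3, quasi-likelihood test, Benjamini-Hochberg adjustment, threshold 0.05) over all genes, 13226 in females, 13460 in males and 14020 in both sexes together. All 16 libraries of a sex were fitted together; sexes were compared in a fit of all 32. Members below the filter came from the same fit to all genes with a count (25490 in females and 25760 in males). Printed CPM carry the TMM factors of the 8-group fit. Pooled rate ratios have exact 95% intervals that cover counting error only. SEs are the log2 change over the square root of F. The procedure was tested on simulated counts. DESeq2 1.42.0, other scalings, filters and sample sets were alternatives. No 2 libraries had identical counts. Up to 4 further genes were named per list, the 2 with the lowest adjusted p by diet in WT females and the 2 in WT males, and 5 genes per likeness list.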

Additional observations from a re-analysis of the deposited data

Results flagged for a closer look

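In 34 groups of 4 libraries whose highest library had at least 10 counts of the gene, the highest or lowest library was compared with its nearest neighbour, and 4 groups held a library farther away than Dixon's 95% critical value allows. Chance gives about 1 in 20 such groups. ND-fed WT male replicate 1 was low in Ptprc at 6.99 CPM (gap 0.837 of the range, the other 3 libraries between 8.10 and 8.31 CPM). CDAHFD-fed WT male replicate 1 was low in Ptprc at 19.7 CPM (gap 0.864), and it also had 0 counts of Cd3g and Nkg7. ND-fed Cyp2b-null male replicate 4 was low in Ptprc at 3.77 CPM (gap 0.870). CDAHFD-fed Cyp2b-null female replicate 1 was high in Cd8a at 3.77 CPM on 15 counts (gap 0.831).

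Of 25 tests of whether an effect differed between genotypes or sexes (interactions) in members that passed the filter, 1 was past the threshold: the diet effect on Ptprc was larger in Cyp2b-null males than in Cyp2b-null females by 1.27 on the log2 scale (adjusted p = 0.0213, edgeR). For the same difference, 6 of 14 macrophage and Kupffer cell markers were called in the same direction, where 3.4% of all genes were called in either. So were 3 of 6 endothelial markers and 1 of 9 other T cell genes, while 1 of 5 erythroid genes was called the other way. No gene of the other lists was called. The part of any of these cells in the Ptprc difference was not tested.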

How the results depend on the processing

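The number of members called by diet moved with the processing. In Cyp2b-null females it was 2, but 3 without a filter or with 1 CPM in 4 libraries as the filter, and 1 without the 2 CDAHFD-fed Cyp2b-null libraries (female replicate 3, male replicate 4) that the study's heat maps lack or with only the compared groups fitted; leaving out 1 replicate gave 1 to 2. In WT males it was 1, but 2 with library size as the only scaling, with 1 CPM in 4 libraries as the filter or without those 2 libraries, 3 without a filter, and 1 to 3 with 1 replicate left out. In Cyp2b-null males it was 2, but 4 without a filter, 1 with only the compared groups and 1 to 3 with 1 replicate left out. The sex difference of the diet effect in Cyp2b-null mice went from 1 call to 0 without the 2 libraries and 0 to 1 with 1 replicate left out, and the ND-fed WT sex comparison gave 0 to 1. A looser filter admits more members. In the fit without the filter, single replicates decided the calls of Cd8a and Cd3d given above. Scaling by library size alone raised the median diet effect over all genes to between 0.28 and 0.37, and the members with it. The genotype and interaction counts stayed at 0 under the alternatives run.

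The signs of small values were not stable. Without the 2 libraries the diet effect on Cd3g in Cyp2b-null females was -0.062, the CDAHFD genotype difference of Cd79b in females -0.12, the female interactions of Ptprc and Nkg7 0.037 and -0.016, and the male interaction of Cd3g -0.068. With 1 replicate left out, the diet effect ranged from -0.41 to 0.61 (Cd3g) and -0.081 to 1.21 (Cd79a) in WT females and from -0.18 to 0.28 (Cd3g) and -0.23 to 0.27 (Cd79a) in Cyp2b-null females. Genotype differences ranged from -0.18 to 0.0010 (Ptprc, ND females), -0.12 to 0.47 (Cd79b, CDAHFD females), -0.77 to 0.20 (Cd79b, ND males) and -0.080 to 0.27 (Ptprc, CDAHFD males). Female interactions ranged from -1.14 to 0.16 (Cd79a), -0.55 to 0.068 (Cd79b), -0.23 to 0.037 (Ptprc) and -0.016 to 0.99 (Nkg7), and male ones from -0.27 to 0.56 (Cd3g) and -0.0023 to 0.96 (Cd79b). The CDAHFD-fed WT sex difference of Ptprc ranged from -0.011 to 0.26. The cause was not tested.

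Groups share replicate numbers, but libraries with the same number did not deviate together (median correlation -0.0079 in females and 0.025 in males, with 2 and 3 of 24 pairs above 0.1). With the replicate number as a block, the diet effect on Ptprc was 1.38 and 1.26 in WT and Cyp2b-null females and 2.12 and 2.46 in males, all called, the number of members called did not move by more than 1.5 times, and Cd3d in WT males lost its call (adjusted p = 0.0568). Depth limits every member but Ptprc: a group with no counts allows up to 3.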
